A study of Mus musculus with 12 samples.

Results

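Cluster 17 of the embryonic day 14 (E14) mouse cortex held the nuclei named as mitotic intermediate progenitor cells (IPCs), and all nuclei that the authors had assigned to it were taken: 993 of 50550 nuclei, or 1.96%, from 11 embryos. It was the 17th of the 25 clusters by number of nuclei. Single nucleus RNA sequencing compared cortices from C57BL/6J embryos whose dams had received saline or 2.5 g/kg ethanol (EtOH) intraperitoneally, with 6 daily injections from E8.5. Dams S1 and S2 gave the 5 saline embryos S1-1, S1-2, S2-1, S2-2 and S2-4, dams E1 and E2 gave the 6 EtOH embryos E1-1, E1-2, E2-1, E2-2, E2-3 and E2-4, and the second number names the littermate. Libraries of dams S1 and E1 formed batch 1, and those of dams S2 and E2 formed batch 2. Saline embryo S2-3 was not used here, and the methods state that 1 saline sample was removed because its nuclei fell into the clusters differently. Each embryo counted as 1 replicate although littermates share a dam, so the p-values measure the spread between embryos and not between litters. Cluster 17 held 99 to 175 nuclei per saline embryo (599 in all) and 42 to 87 per EtOH embryo (394 in all).

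IPCs arise from radial glial cells (RGCs) at the ventricular surface, lose their radial attachment, and divide away from the ventricle to give rise to glutamatergic projection neurons. The T-box factor Eomes (Tbr2) marks them, while mitotic cells of any lineage turn on genes for chromosome condensation, the kinetochore, the spindle and cytokinesis. A dividing IPC is therefore recognized by Eomes together with Top2a, the topoisomerase that untangles sister chromatids, and Mki67, the protein that coats mitotic chromosomes. Cluster 6 held the other IPCs, with 3764 nuclei, and Cluster 2 held dividing RGCs, with 4346 nuclei.

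The summed counts of Cluster 17 came to between 1187210 and 1613282 unique molecular identifiers (UMIs, one per captured transcript) in each saline embryo and to between 423368 and 847419 in each EtOH embryo. The median nucleus held 8640 UMIs, against 7258 over all nuclei. Of the Cluster 17 nuclei, 10 carried a cell barcode that also occurred in another library, and 0 shared one with a Cluster 17 nucleus of another library. Median depth was 11058, 10577, 9947, 9543.5 and 7832 UMIs per nucleus in S1-1, S1-2, S2-1, S2-2 and S2-4, and 5520, 7812.5, 8203, 7759.5, 8031 and 7811 in E1-1, E1-2, E2-1, E2-2, E2-3 and E2-4. Embryo S2-4 thus had the depth of the EtOH embryos, while the other 4 saline embryos lay above all EtOH embryos. Saline embryos averaged 9792 ± 1240 UMIs (SD, n = 5) and EtOH embryos 7523 ± 996 UMIs (SD, n = 6) (two-sided exact permutation test, p = 0.00649, and p = 0.0143 when labels were exchanged within batches). Because depth differed with treatment, an effect of EtOH and an effect of depth cannot be told apart in these libraries.

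Cluster 17 was the cluster in which Eomes and Top2a were high together. Levels below are given as CPM, the counts of a gene summed over the nuclei of an embryo and scaled to the summed UMIs of those nuclei, and comparisons of levels between clusters are descriptions without a test, since the nuclei had been clustered on these genes. Top2a stood at 789 ± 109 CPM (SD, n = 11) in Cluster 17, 28.4 ± 16.6 in Cluster 6 and 731 in Cluster 2. Eomes stood at 202 ± 47.4 CPM in Cluster 17, 414 in Cluster 6 and 22.4 ± 5.71 in Cluster 2. Mki67 stood at 308 ± 49.7 CPM in Cluster 17, 32.7 in Cluster 6 and 281 in Cluster 2. The proliferation markers were therefore at the level of dividing RGCs, and Eomes lay between the non-mitotic IPCs and the RGCs.

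**Figure D1:**
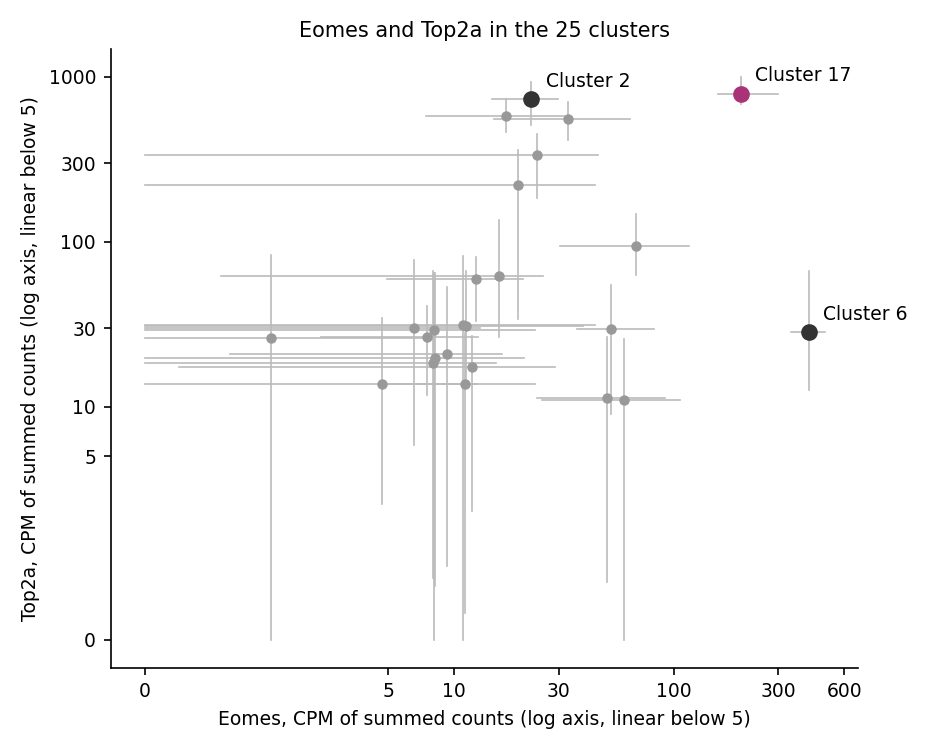
Mean Eomes (x axis) and Top2a (y axis) in each of the 25 clusters, in CPM of summed counts on axes that are logarithmic above 5 and linear below. Points are means over the embryos and grey lines the range over embryos. Cluster 17, at 202 CPM of Eomes and 789 CPM of Top2a, sits apart from Cluster 6, at 28.4 CPM of Top2a, and from Cluster 2, at 22.4 CPM of Eomes.

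A UMI of Eomes was found in 67.1 ± 9.33% of the Cluster 17 nuclei of an embryo (SD, n = 11), a UMI of Top2a in 92.1 ± 2.33%, and UMIs of both genes in 64.4 ± 9.38%. In Cluster 6, 78.6% of nuclei carried Eomes but 6.84 ± 3.59% carried both, and in Cluster 2 76.2% carried Top2a but 7.12 ± 1.73% carried both. As background, Eomes was found in 4.87% of nuclei of interneuron Cluster 13, at a median of 6790 UMIs, and in 6.52% of Cluster 11, at 8528 UMIs. Top2a was found in 6.77% of nuclei of projection neuron Cluster 1, at a median of 6608 UMIs, in 10.4% of interneuron Cluster 5, at 6652 UMIs, and in 10.1% of Cluster 11. In Cluster 6, at a median of 5494 UMIs, Top2a was found in 8.41 ± 3.87% of nuclei, against 5.67 ± 4.22% in Cluster 9, at 5566 UMIs, and Eomes was found in 9.40% of Cluster 2 nuclei. At least 1 of the 3 markers was found in 95.6 ± 2.10% of Cluster 17 nuclei, against 82.3% in Cluster 6 and 83.5% in Cluster 2. With every nucleus thinned to 2000 UMIs, which left out 2 nuclei of Cluster 17, 35.6 ± 6.92% carried Eomes, 74.9 ± 6.47% carried Top2a and 29.0 ± 6.28% carried both, against 2.06% with both in Cluster 6 and 1.55% in Cluster 2. At the same depth Eomes was found in 53.5% of Cluster 6 nuclei. Mki67 was found in 44.7% of Cluster 17, 6.08% of Cluster 6 and 37.0% of Cluster 2 nuclei. The nuclei had been clustered on these genes, so these shares describe the label and do not test it. Doublets were not called, and 107 of the 993 nuclei held more than 2 times the median UMIs of their embryo.

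**Figure D2:**
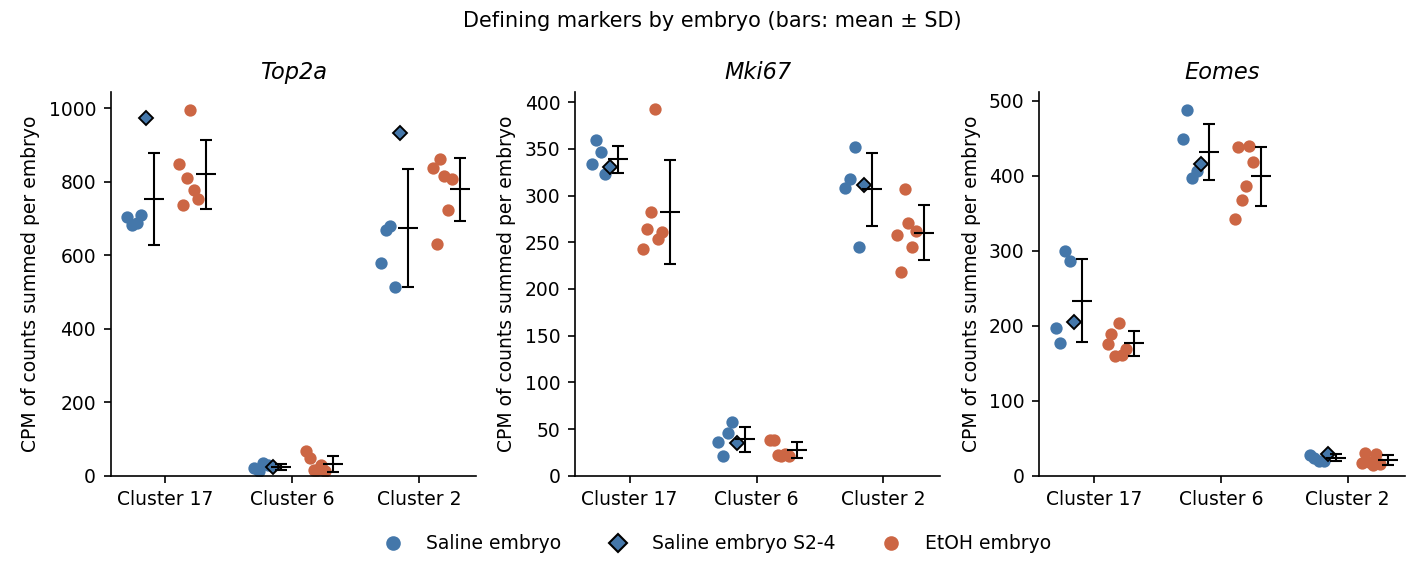
Top2a, Mki67 and Eomes in each embryo in Clusters 17, 6 and 2, in CPM of counts summed per embryo (y axis from 0). Points are embryos, bars are the mean ± SD of a group, and the diamond is saline embryo S2-4, whose Top2a level of 974 CPM in Cluster 17 stands above the other 4 saline embryos.

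Top2a and Mki67 are among the genes of the mitotic program whose promoters carry a cell cycle homology region (CHR, TTTGAA) and CCAAT boxes. Both elements are known from promoters that are silenced early in the cell cycle and opened late in it. The 5 promoters below are shown because their genes were among the highest of the mitosis genes in Cluster 17 and hold both elements. They run from 250 bases before to 50 bases after the start of the gene, from RefSeq on GRCm38.p6, 5′ to 3′ on the strand of the gene, with TTTGAA and CCAAT, read on either strand, in capitals. The positions are chr11:99024140-99024439 on the minus strand for Top2a, chr7:135716330-135716629 on the minus strand for Mki67, chr2:91526512-91526811 on the plus strand for Ckap5, chr19:37376132-37376431 on the plus strand for Kif11 and chr9:61946750-61947049 on the minus strand for Kif23.
Top2a: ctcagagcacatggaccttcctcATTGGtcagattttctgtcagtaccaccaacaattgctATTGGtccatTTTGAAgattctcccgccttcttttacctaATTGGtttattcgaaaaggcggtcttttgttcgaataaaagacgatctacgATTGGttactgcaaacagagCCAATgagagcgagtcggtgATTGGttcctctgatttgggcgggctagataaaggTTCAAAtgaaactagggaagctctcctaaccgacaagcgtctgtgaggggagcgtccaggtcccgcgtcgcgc
Mki67: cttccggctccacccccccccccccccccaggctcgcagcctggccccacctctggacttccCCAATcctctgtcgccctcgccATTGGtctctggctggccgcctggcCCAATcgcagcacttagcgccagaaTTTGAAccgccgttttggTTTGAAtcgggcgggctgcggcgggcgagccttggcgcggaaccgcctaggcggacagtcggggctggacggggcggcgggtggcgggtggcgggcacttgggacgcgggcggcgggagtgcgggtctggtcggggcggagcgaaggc
Ckap5: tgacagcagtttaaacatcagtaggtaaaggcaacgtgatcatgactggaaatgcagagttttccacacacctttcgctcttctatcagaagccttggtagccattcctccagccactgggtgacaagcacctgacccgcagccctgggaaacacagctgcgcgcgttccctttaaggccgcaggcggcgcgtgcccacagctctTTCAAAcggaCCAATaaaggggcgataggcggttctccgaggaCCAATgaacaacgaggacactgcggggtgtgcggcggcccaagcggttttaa
Kif11: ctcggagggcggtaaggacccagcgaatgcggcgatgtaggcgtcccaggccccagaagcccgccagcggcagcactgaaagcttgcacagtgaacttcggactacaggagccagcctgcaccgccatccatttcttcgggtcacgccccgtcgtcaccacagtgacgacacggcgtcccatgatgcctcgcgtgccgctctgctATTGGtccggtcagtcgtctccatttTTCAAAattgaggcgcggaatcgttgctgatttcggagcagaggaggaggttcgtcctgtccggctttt
Kif23: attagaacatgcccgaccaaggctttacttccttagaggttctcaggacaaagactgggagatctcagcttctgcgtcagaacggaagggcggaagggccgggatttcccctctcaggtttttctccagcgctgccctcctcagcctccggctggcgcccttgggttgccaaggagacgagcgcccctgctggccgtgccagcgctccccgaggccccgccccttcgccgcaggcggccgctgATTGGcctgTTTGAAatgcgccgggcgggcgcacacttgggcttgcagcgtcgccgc
Top2a, with 6 CCAAT and 2 CHR matches, held the most of the 5. Mki67 held 3 CCAAT and 2 CHR matches, Ckap5 held 2 and 1, and Kif11 and Kif23 held 1 of each.

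Of the 105 genes of the 5 mitosis lists (condensation, kinetochore, spindle, mitotic kinases, cytokinesis), 84 had a promoter in the table. TTTGAA was found in 59.5% of them and in 18.1% of all 27025 promoters of this length. CCAAT was found in 64.3% against 37.9%, and both motifs together in 46.4% against 7.12%. Among 45 promoters of DNA replication genes, 8 held TTTGAA and 27 held CCAAT. Among 17 promoters of neurogenic IPC genes, 1 held TTTGAA. A match describes the letters of the promoter and is not evidence of binding.

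Gene lists for each step of mitosis reached their highest summed level of the 25 clusters in Cluster 17. For chromosome condensation, 16 genes summed to 3538 CPM in Cluster 17, 636 in Cluster 6 and 3309 in Cluster 2, and 11 genes were highest in Cluster 17. Smc4, a condensin subunit, stood at 366 ± 30.9 CPM, below the 377 CPM of Cluster 2, and Tmpo, a lamina-associated protein of the nuclear envelope, at 332 ± 38.4 CPM. For the kinetochore and spindle checkpoint, 25 genes summed to 3587 CPM in Cluster 17, 341 in Cluster 6 and 3459 in Cluster 2. Among them, Cenpp stood at 448 ± 56.7 CPM, below the 490 CPM of Cluster 2. Knl1, the scaffold that recruits checkpoint proteins, stood at 383 ± 58.8 CPM, Cenpe, a kinetochore motor, at 310 ± 51.9 CPM, and Cenpf at 263 ± 56.8 CPM. For the spindle and centrosome, 23 of 26 genes were highest in Cluster 17, and the sum was 4568 CPM against 890 in Cluster 6 and 4101 in Cluster 2. Ckap5, a microtubule polymerase, stood at 596 ± 54.7 CPM, and Kif11, the kinesin that pushes spindle poles apart, at 366 ± 48.3 CPM. For cytokinesis, 13 genes summed to 2483 CPM against 163 in Cluster 6 and 2467 in Cluster 2. Diaph3, a formin, stood at 585 ± 77.3 CPM, below the 693 CPM of Cluster 2, while Kif23, the motor of the central spindle, stood at 276 ± 34.2 CPM and was highest in Cluster 17. The DNA replication genes did not peak in Cluster 17: their sum of 4767 CPM lay below the 5251 CPM of Cluster 2, and 8 of 56 genes were highest in Cluster 17.

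Genes that set Cluster 17 apart from every other cluster did so by small ratios. Of 8889 genes of at least 10 CPM, 441 were highest in Cluster 17, and for 214 of these the next cluster was Cluster 2, for 69 Cluster 10, for 56 Cluster 3 and for 40 Cluster 6. The largest ratio to the next cluster was 1.71, for Mybl1, a MYB family transcription factor, which reached 93.8 ± 30.3 CPM, against 54.7 CPM in Cluster 2. Insm1, a zinc finger factor that promotes the formation of basal progenitors, followed at 33.8 ± 9.40 CPM, 1.65 times its level in Cluster 6. Mis18a, which loads the centromeric histone, Gtse1, a microtubule regulator, and Tpx2, the spindle assembly factor that activates Aurora A, exceeded their next cluster by 1.44, 1.42 and 1.34 times. Fam110a, Hyls1, Zc3h7a, Gm3550 and Mphosph9 completed the 10 largest ratios, with 1.31 to 1.56 times the next cluster.

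Against the non-mitotic IPCs, the 5 largest ratios of mean CPM belonged to Kif2c, Troap, Depdc1b, Kif14 and Hmmr. Kif2c, a microtubule-depolymerizing kinesin, stood at 83.5 CPM in Cluster 17 against 1.83 CPM in Cluster 6. Troap stood at 48.4 against 1.31 CPM, Depdc1b at 119 against 3.54 CPM, Kif14, a kinesin of cytokinesis, at 118 against 3.70 CPM, and Hmmr, a spindle protein, at 137 against 4.32 CPM. With 1 CPM added to both levels, Top2a and Kif11, the latter at 366 against 13.4 CPM, replaced Troap and Kif14. All 7 genes were higher in Cluster 17 in 11 of 11 embryos. In the other direction were Wnt5a, a secreted Wnt ligand, at 5.51 ± 2.29 against 30.9 ± 13.6 CPM, and Trhde, an ectoenzyme that degrades thyrotropin-releasing hormone, at 5.44 against 24.4 CPM, both lower in Cluster 17 in 11 of 11 embryos. Sim1, Tgfbr3 and Gm29683 also had lower means, each with 1 of 11 embryos higher in Cluster 17. They stood at 1.51, 3.18 and 25.7 CPM against 52.8 ± 89.2, 48.1 ± 35.0 and 128 ± 59.0 CPM. The SD of Sim1 in Cluster 6 exceeded its mean, so its ratio depended strongly on the embryo.

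Against the dividing RGCs, the 5 largest ratios of mean CPM belonged to Kif26b, Thrb, Ebf2, Gm11817 and Clvs1. Kif26b stood at 763 ± 145 CPM, against 50.7 ± 16.4 CPM in Cluster 2. Thrb, the thyroid hormone receptor beta, stood at 127 against 10.3 CPM, Ebf2 at 81.1 ± 83.0 against 7.21 CPM, Gm11817 at 34.2 against 3.18 CPM, and Clvs1 at 505 against 48.1 CPM. With 1 CPM added, Gm11817 was replaced by Slc17a6, the vesicular transporter that makes neurons glutamatergic, at 311 ± 47.0 against 30.2 ± 12.6 CPM. Lower in Cluster 17 were Htra1, a secreted protease, at 3.18 against 44.0 CPM, Rnf43, a ubiquitin ligase that removes Wnt receptors, at 2.79 against 30.9 CPM, and Cav1, Tmem132cos and Mybpc1 at 4.00, 6.30 and 6.16 against 36.8, 55.5 and 53.9 CPM. With 1 CPM added, E330013P04Rik, at 13.9 against 115 CPM, replaced Cav1. All 12 genes differed in the same direction in 11 of 11 embryos.

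The neurogenic IPC genes as a group lay between those clusters, with a summed 9832 CPM in Cluster 17, 15628 in Cluster 6 and 3724 in Cluster 2, and 21 of 23 genes were above Cluster 2 while 1 was above Cluster 6. Neurog2, the proneural factor upstream of Eomes, stood at 80.6 ± 15.7 CPM, against 136 in Cluster 6 and 29.1 in Cluster 2. The 19 radial glia genes ran the other way, with 2503 CPM in Cluster 17, 1485 in Cluster 6 and 5082 in Cluster 2. Pax6, the homeodomain factor of RGCs, stood at 194 ± 39.4 CPM, against 137 in Cluster 6 and 336 in Cluster 2.

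Module scores of the S and G2/M genes named by the study placed 58.3 ± 5.71% of Cluster 17 nuclei of an embryo in G2/M, 38.8 ± 6.02% in S and 2.91 ± 2.25% in G1 (SD, n = 11). Cluster 6 had 14.2 ± 2.00% in G2/M and 56.2% in G1, and Cluster 2 had 45.0 ± 5.75% in G2/M and 10.3% in G1. Thinned to 2000 UMIs, Cluster 17 had 56.5% in G2/M and 5.77% in G1. With the DNA replication and mitosis lists in place of the study's genes, the percentage in G2/M was 69.7% in Cluster 17, 0.942% in Cluster 6, with 82.8% in G1, and 50.3% in Cluster 2. These calls use genes that also define the clusters, and free RNA in the droplets was not measured, so the calls alone show no cycling. In nuclei called G2/M against nuclei called S of the same embryo, Slc17a6 stood at 371 ± 75.5 against 218 ± 53.3 CPM and was higher in 10 of 11 embryos. Unc5d, a netrin receptor of multipolar cells, stood at 2684 against 1928 CPM (10 of 11 embryos), and Vim, an intermediate filament of progenitors, at 37.4 against 25.9 CPM (10 of 11 embryos). Apart from Top2a and Mki67, these 3 were the most one-sided of the genes compared. Among other radial glia genes Sox2 was higher in 8 embryos, Pax6 and Slc1a3 in 7, and Sox9 and Fabp7 in 6. Hes1, Nes and Ednrb were higher in 5 and Hes5 in 4. Neurod2 stood at 105 against 109 CPM (5 of 11 embryos) and Tbr1 at 30.9 against 21.1 CPM (9 of 11 embryos). Eomes stood at 212 ± 43.6 against 193 ± 61.5 CPM and was higher in 6 of 11 embryos, so its level was not separated by phase.

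The first question on EtOH was whether the fraction of mitotic IPCs changed. Cluster 17 made up 1.45, 2.02, 1.64, 2.52 and 2.43% of the nuclei of S1-1, S1-2, S2-1, S2-2 and S2-4, and 2.66, 1.79, 1.76, 1.42, 2.17 and 2.25% of those of E1-1, E1-2, E2-1, E2-2, E2-3 and E2-4. The groups overlapped over nearly their whole range. Saline embryos averaged 2.01 ± 0.469% (SD, n = 5) and EtOH embryos 2.01 ± 0.438% (SD, n = 6), a difference smaller than the spread between embryos (two-sided exact permutation test, p = 0.974). Within batch 1 the difference, EtOH minus saline, was 0.483 percentage points, and within batch 2 it was -0.298 percentage points. Of all IPC nuclei (Clusters 6 and 17), Cluster 17 made up 21.9 ± 4.40% in saline and 20.4 ± 2.91% in EtOH (p = 0.485, exact permutation test). In batch 2 the share of IPC nuclei was 24.8 ± 1.68% for 3 saline and 19.9 ± 2.96% for 4 EtOH embryos (p = 0.0571, exact permutation test), and in batch 1, with 2 embryos a group, it was 17.7% and 21.2%.

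**Figure D3:**
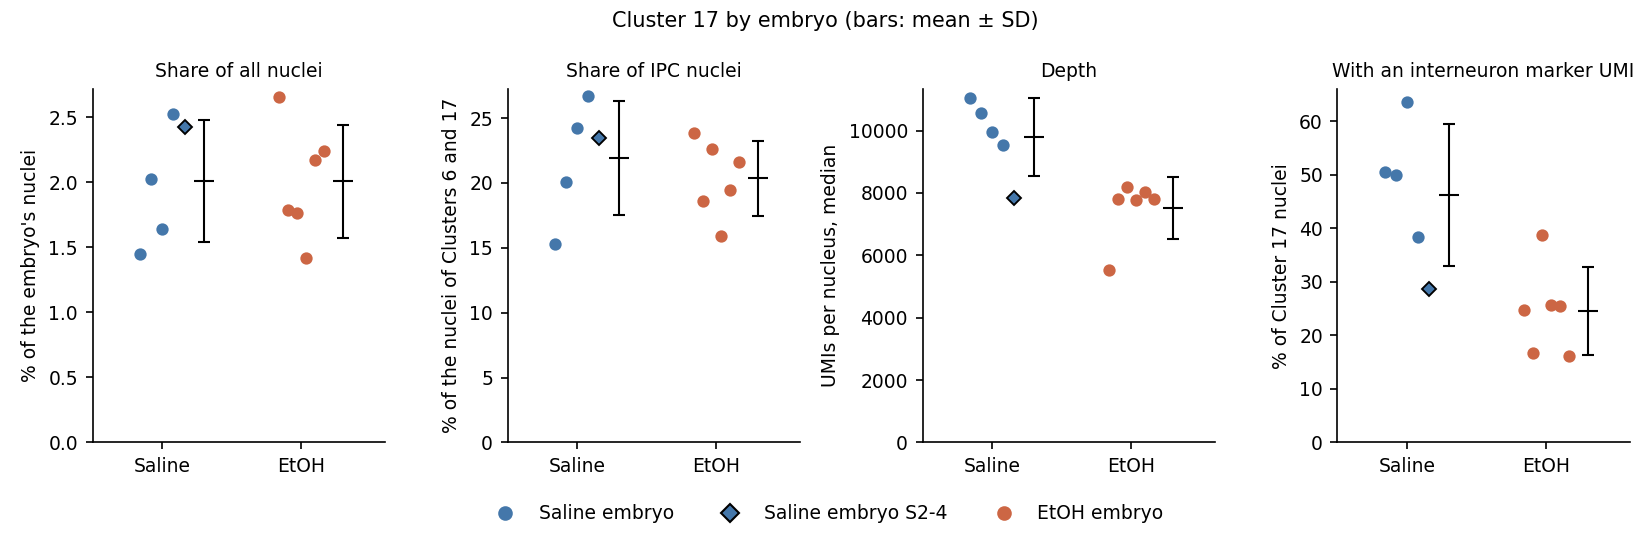
Cluster 17 in each embryo: its share of all nuclei and of IPC nuclei (percent), the median UMIs per nucleus, and the percentage of its nuclei with a UMI of an interneuron marker. Points are embryos, bars the mean ± SD of the 5 saline and 6 EtOH embryos, and the diamond is S2-4, which lies with the EtOH embryos in depth at 7832 UMIs and in interneuron marker detection at 28.6%.

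Nuclei called G2/M made up 61.0 ± 3.95% of Cluster 17 in saline and 56.0 ± 6.26% in EtOH, and nuclei called S made up 36.5 ± 4.75% and 40.7 ± 6.71% (exact permutation tests, adjusted p = 0.403 for each over the 3 phases). Nuclei called G1 made up 2.45 ± 1.78% and 3.30 ± 2.69% (exact permutation test, adjusted p = 0.567). No phase differed beyond the spread between embryos.

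A UMI of Eomes was found in 73.9 ± 8.62% of Cluster 17 nuclei in saline and 61.4 ± 5.46% in EtOH, and UMIs of Eomes and Top2a together in 70.9 ± 8.28% and 58.9 ± 6.57% (exact permutation tests, adjusted p = 0.0455 for each over 3 percentages). The groups overlapped, since E2-2 stood at 71.4% for Eomes and S2-4 at 64.0%. With nuclei thinned to 2000 UMIs the Eomes percentages were 38.3 ± 9.14% and 33.3 ± 3.92% and those of both genes 31.5 and 26.9% (exact permutation tests, adjusted p = 0.435 for each), so the difference did not pass the test at equal depth. Without thinning, it no longer passed when any of 8 of the 11 embryos was left out, all but S1-1, S2-4 and E2-2 (exact permutation tests, adjusted p = 0.0643 to 0.114 for Eomes and 0.0643 to 0.121 for both genes). The level of Eomes was 197, 178, 299, 286 and 205 CPM in S1-1, S1-2, S2-1, S2-2 and S2-4, and 176, 189, 160, 204, 161 and 169 CPM in E1-1, E1-2, E2-1, E2-2, E2-3 and E2-4. The high values were those of S2-1 and S2-2, and the groups overlapped. Eomes did not pass the test across all genes (log2 fold change -0.43 ± 0.12 (SE), edgeR quasi-likelihood test, adjusted p = 0.113). Top2a was found in 93.3 ± 1.30% and 91.0 ± 2.58% of nuclei (exact permutation test, adjusted p = 0.121), with a log2 fold change of 0.09 ± 0.10 (SE).

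Across the transcriptome of Cluster 17, 14 of 8533 genes tested, 0.164%, were called between EtOH and saline (edgeR quasi-likelihood test on counts summed per embryo, called at a Benjamini-Hochberg adjusted p under 0.05, with a minimum fold change that removed no further gene). Of these, 11 rose (0.129% of genes tested) and 3 fell (0.0352%), while 1351 genes had an unadjusted p under 0.05. The 3 genes that fell were Reln, Neurod2 and Glis3. Those that rose were Fgfr2, Ggact, Msto1 and 8 transcripts with provisional names. The groups did not overlap for 12 of the 14, against 1.58% of all genes tested. The 14 had been called from these same embryos, so this separation describes them and does not test the calls.

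Reln, the extracellular glycoprotein that Cajal-Retzius cells secrete to guide neuronal layering (chr5:21884454-22344702 on GRCm38), stood at 101, 112, 86.8, 123 and 62.0 CPM in S1-1, S1-2, S2-1, S2-2 and S2-4, and at 55.6, 30.7, 47.2, 41.4, 39.0 and 60.2 CPM in E1-1, E1-2, E2-1, E2-2, E2-3 and E2-4. All saline embryos lay above all EtOH embryos, with S2-4 closest to them. Its log2 fold change was -1.09 ± 0.19 (SE; edgeR, adjusted p = 0.0353). The summed level of the 4 Cajal-Retzius markers, of which Reln is 1, was 63.2 to 131 CPM in saline and 35.4 to 63.7 CPM in EtOH embryos, against 11251 CPM in Cluster 14, and 0 of the 4 markers were at 0. Most of that sum was Reln itself, and the other 3, Lhx1, Lhx5 and Trp73, came to 1.24 to 8.34 CPM in saline and 0 to 7.18 CPM in EtOH embryos, from 0 to 11 UMIs an embryo. The part of Cajal-Retzius RNA in this difference was not tested.

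Neurod2, the basic helix-loop-helix factor of young projection neurons (chr11:98325415-98329648), stood at 133, 142, 158, 121 and 110 CPM in the saline embryos in the same order, and at 82.6, 109, 106, 64.5, 69.1 and 67.3 CPM in the EtOH embryos. The gap between the lowest saline and the highest EtOH embryo was small, at 109.7 against 108.7 CPM. Its log2 fold change was -0.73 ± 0.14 (SE; edgeR, adjusted p = 0.0353). The summed level of 7 projection neuron markers was 2628 to 3429 CPM in saline and 2625 to 3247 CPM in EtOH embryos, and 0 of the 7 were at 0. Sox5 alone was 1799 CPM of their mean of 2996 CPM, with a log2 fold change of -0.05. It also stood at 903 CPM in the RGCs of Cluster 2, so the sum mostly followed Sox5 and not Neurod2. Glis3, a Krüppel-like zinc finger factor (chr19:28258851-28680077), stood at 29.1 to 49.3 CPM in saline and 10.8 to 23.2 CPM in EtOH embryos (log2 fold change -1.15 ± 0.22 (SE), edgeR adjusted p = 0.0353). Next by p among lower genes, without passing, were Rfx3, a factor of ciliated cells, at 694 ± 70.1 CPM in saline and 549 ± 25.9 CPM in EtOH (edgeR, adjusted p = 0.08), and Sfpq, a splicing factor, at 808 ± 60.7 and 648 ± 32.0 CPM (edgeR, adjusted p = 0.0821).

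Fgfr2, a receptor for fibroblast growth factors that is used by radial glia, stood at 377, 364, 363, 459 and 563 CPM in the saline embryos and at 603, 697, 635, 599, 643 and 553 CPM in the EtOH embryos. Saline embryo S2-4 lay within the EtOH range, and the other 4 saline embryos lay below it. Its log2 fold change was 0.51 ± 0.10 (SE; edgeR, adjusted p = 0.0353).

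Ggact, an enzyme that breaks down cross-linked glutamyl-lysine (chr14:122816223-122913757), stood at 9.74 to 28.5 CPM in saline and 26.6 to 52.9 CPM in EtOH embryos (log2 fold change 1.33 ± 0.24 (SE), edgeR adjusted p = 0.0353). Without S2-4 its groups would not overlap, since the other saline embryos reached 15.2 CPM. Msto1, a protein of mitochondrial distribution, stood at 4.55 to 8.06 CPM in saline and 11.4 to 24.8 CPM in EtOH (log2 fold change 1.52 ± 0.30 (SE)). It rested on few molecules, with a median of 10 UMIs per embryo. Gm26873, an antisense transcript across Riok2 and Lix1 (chr17:17389943-17411993), stood at 10.4, 8.81, 10.1, 9.86 and 21.1 CPM in the saline embryos and at 39.5, 23.6, 44.4, 28.1, 47.8 and 28.3 CPM in the EtOH embryos (log2 fold change 1.49 ± 0.26 (SE), edgeR adjusted p = 0.0353). Again S2-4 lay between the other saline embryos and the EtOH embryos.

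Of the others that rose, 4930578G10Rik went from 137 ± 15.9 to 211 ± 33.2 CPM, 6530409C15Rik from 24.3 ± 6.53 to 49.8 ± 11.1 CPM, and Gm28375, antisense to Dis3l2, from 43.0 ± 15.1 to 85.5 ± 15.9 CPM. Gm26582, across Cdkl2 and G3bp2, went from 10.8 ± 6.57 to 32.3 ± 5.38 CPM, Gm26573, amid zinc finger genes of chromosome 4, from 22.8 ± 5.51 to 44.2 ± 6.78 CPM, and Gm26722, across Rbbp4, from 24.8 ± 5.85 to 46.5 ± 4.59 CPM. Gm21954, across Dclk1, went from 7.19 ± 1.86 to 19.7 ± 5.97 CPM and is named beyond the 10 genes per direction that the rule allowed. It had the highest adjusted p of the 14 (edgeR, 0.0496, against 0.0353 for the others) and was not called with RLE size factors (0.0527) or with a filter at a mean of 10 CPM (0.0511), each of which called 13 genes. Of the 14 called genes, 13 overlap a gene on the other strand in the GENCODE M21 annotation of GRCm38, against 51.7% of the 8460 tested genes that matched it, and 8, or 57.1%, carry provisional names, against 6.50% of all genes tested. The methods name default settings for Cell Ranger, which by default counts reads on the strand of the gene, but no strand setting is stated, so the values of called genes with such a partner are uncertain to that extent. Fgfr2 is among the 13 through an annotated span of chr7:130162451-133123350, which crosses many genes on both strands. Reln, Glis3, 4930578G10Rik and Gm26573 also overlap a gene on their own strand.

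**Figure D4:**
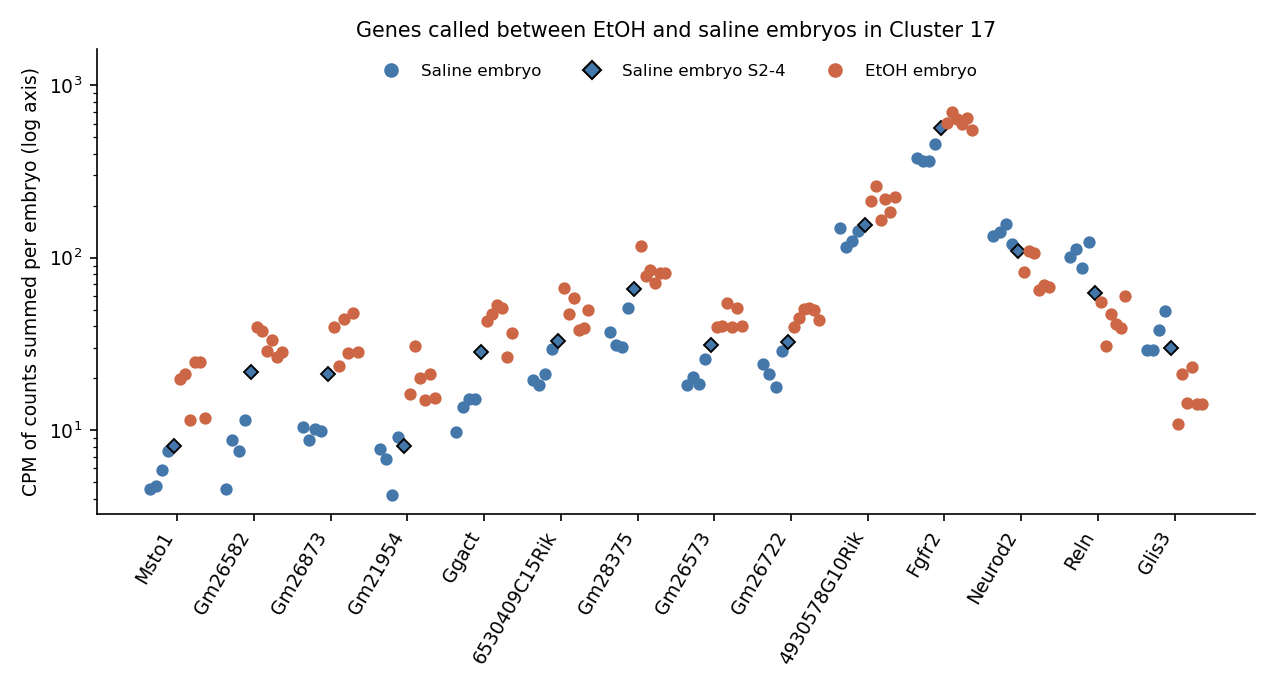
Levels of the 14 called genes in Cluster 17 in each embryo, in CPM of counts summed per embryo on a logarithmic axis, ordered by fold change. Points are embryos and the diamond is saline embryo S2-4, which lay nearer to the EtOH embryos than every other saline embryo for 12 of the 14 genes.

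With batch as a term, 4 of the 14 genes were called, Gm26873, Ggact, 4930578G10Rik and Reln (edgeR, adjusted p = 0.0491 for each), and Fgfr2, Neurod2 and Glis3 stood at 0.0506. The log2 fold changes of the 14 genes were 0.968 to 1.03 times those without the term. Counts summed per dam gave 0 calls by edgeR, with 1276 genes at an unadjusted p under 0.05. The number of calls also changed with single embryos. For 12 of the 14 genes S2-4 lay beyond every other saline embryo on the side of the EtOH embryos, for 10 it lay between the 2 groups and for 2 within the EtOH range. Without S2-4, 568 genes were called (6.75% of 8418 tested, 431 higher and 137 lower), the 14 among them. In that fit every saline embryo lay above every EtOH embryo in median depth, so depth and EtOH cannot be told apart in these calls. Leaving out any other embryo left 0 calls by edgeR, with 1039 to 1321 genes at an unadjusted p under 0.05, while the log2 fold changes of the 14 genes were 0.868 to 1.14 times those of all embryos (0.46 to 0.54 for Fgfr2, -1.20 to -1.01 for Reln and -0.83 to -0.66 for Neurod2). With the median depth of each embryo as a term, 0 genes were called and 365 had an unadjusted p under 0.05, and the log2 fold change was 0.37 for Fgfr2, -0.83 for Reln and -0.52 for Neurod2. The 14 genes stayed on the same side of 0, but 3 were over 1.5 times smaller: Gm28375 went from 0.95 to 0.45, Gm26582 from 1.498 to 0.86 and 6530409C15Rik from 1.00 to 0.59.

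Measures of RNA quality are given beside the calls. Ribosomal protein genes held 0.176 to 0.232% of the UMIs of Cluster 17 in saline and 0.226 to 0.247% in EtOH embryos, with S2-2 and S2-4, at 0.232 and 0.230%, within the EtOH range. Malat1, a nuclear RNA, stood at 10248 to 13634 CPM in saline, with S2-4 the highest, and at 12479 to 15404 CPM in EtOH embryos. The groups overlapped in both measures. Their part in the called genes was not tested.

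Interneuron markers are given beside these calls. The 8 markers were Erbb4, Slc32a1, 4 Dlx factors, and Gad1 and Gad2, which make the inhibitory transmitter. They summed to 542, 987, 676, 444 and 435 CPM in the saline embryos. In the EtOH embryos they summed to 420, 137, 525, 144, 515 and 500 CPM. Erbb4 alone was 351 CPM of their mean of 484 CPM in Cluster 17. It stood at 287 to 835 CPM in saline and 76.1 to 409 CPM in EtOH embryos. Gad2 stood at 63.7 to 119 CPM in saline and 35.4 to 122 CPM in EtOH embryos. The groups overlapped, and 0 of the 7 interneuron genes tested were called. With 0.164% of all genes tested called, a count of 0 in so few genes says little. A UMI of Gad1, Gad2, Dlx1, Dlx2, Dlx5 or Dlx6 was found in 28.6 to 63.6% of Cluster 17 nuclei in saline and 16.1 to 38.8% in EtOH embryos, and with nuclei thinned to 2000 UMIs in 13.8 to 25.3% and 4.76 to 17.6%, with overlap in both cases (exact permutation tests, adjusted p = 0.0455 and 0.0974, and 0.0974 for the summed level, over 3 tests). Without thinning, S2-4 had the lowest percentage of the saline embryos. Clusters 6 and 2 differed in the same direction without thinning, and there the groups did not overlap. In Cluster 6, 450 of 571 nuclei of S2-4 lacked such a UMI, the highest share in saline. The lowest share in EtOH was 299 of 369 nuclei, in E2-2. In Cluster 2 the same 2 extremes were 570 of 753 nuclei in S2-4 and 173 of 210 in E1-2. The 8 markers summed to 24864 CPM in interneuron Cluster 5, of which Erbb4 was 23026 CPM, and 0 of the 8 were at 0 in Cluster 17. With their summed level in Cluster 17 as a term in the fit, 0 genes were called and 797 had an unadjusted p under 0.05. The log2 fold change was then -0.89 for Reln, -1.42 for Glis3, -0.66 for Neurod2 and 0.42 for Fgfr2. Without the nuclei that carried such a UMI, Glis3 was the 1 gene called, at -1.66, and the log2 fold change was -1.50 for Reln, -0.83 for Neurod2 and 0.45 for Fgfr2. RGC markers summed to 433 to 548 CPM in saline and 506 to 718 CPM in EtOH embryos, cortical hem markers to 10.5 to 32.0 and 2.36 to 16.2 CPM, and non-neuronal markers to 20.3 to 50.2 and 34.2 to 67.8 CPM, with 0 markers of each list at 0. Striatal markers summed to 538 to 750 and 498 to 781 CPM. The part of these cell types in the called genes was not tested.

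Among the gene lists, with 310 genes tested, 1 member was called, Neurod2 of the 14 projection neuron genes tested, against 0.164% of all genes tested. The median log2 fold change of all genes tested was 0.01, and the unadjusted p was under 0.05 for 8.98% of all genes in the higher and 6.86% in the lower direction. Of the 21 neurogenic IPC genes tested, 0 were called, 17 had a lower and 4 a higher estimate, and the median was -0.09. Neurog2 stood at 77.3 to 108 CPM in saline and 63.8 to 76.1 CPM in EtOH embryos, without overlap (log2 fold change -0.44 ± 0.13 (SE), edgeR adjusted p = 0.113). Plcb1, the highest of this list in Cluster 17, had a log2 fold change of -0.13, Elavl2 of -0.18, Cbfa2t2 of -0.08 and Kif26b of -0.18. Of the 18 radial glia genes tested, 0 were called, 11 had a higher and 7 a lower estimate, and the median was 0.14. Gli3, the highest of this list in Cluster 17, had a log2 fold change of 0.007, Ptprz1 of 0.11 and Lhx2 of -0.20. Pax6 stood at 144 to 198 CPM in saline and 167 to 247 CPM in EtOH embryos (log2 fold change 0.39 ± 0.11 (SE), edgeR adjusted p = 0.113).

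For the mitotic machinery, 0 genes of the 5 lists passed, against 0.164% of all genes tested. Of the 24 kinetochore and checkpoint genes tested, 7 had an unadjusted p under 0.05, all lower, against 6.86% of all genes lower. Their median was -0.12. Cenpf stood at 273 to 337 CPM in saline and 185 to 322 CPM in EtOH embryos (log2 fold change -0.42 ± 0.12 (SE), edgeR adjusted p = 0.122). Knl1 had a log2 fold change of -0.27 ± 0.10 (SE), Cenpp of -0.15 and Cenpe of -0.07. The median was -0.08 for chromosome condensation, -0.05 for the spindle and centrosome, 0.02 for the mitotic kinases and cyclins, and -0.13 for cytokinesis. At an unadjusted p under 0.05 were 1 higher and 2 lower of 15 condensation genes, and 4 lower of 26 spindle genes. Of 24 kinase and cyclin genes 4 were higher and 1 lower at that p, and of 13 cytokinesis genes 3 were lower. Mki67 stood at 334, 359, 346, 323 and 331 CPM in the saline embryos and at 242, 265, 282, 392, 253 and 261 CPM in the EtOH embryos. The EtOH embryos other than E2-2 lay below all saline embryos, and E2-2 lay above them (log2 fold change -0.30 ± 0.10 (SE), edgeR adjusted p = 0.16). Of the 53 DNA replication genes tested, 3 had an unadjusted p under 0.05 in the higher and 4 in the lower direction, and the median was -0.05. Mcm7, a subunit of the replicative helicase, had the smallest p of that list (log2 fold change 0.68 ± 0.20 (SE), edgeR adjusted p = 0.115).

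**Figure D5:**
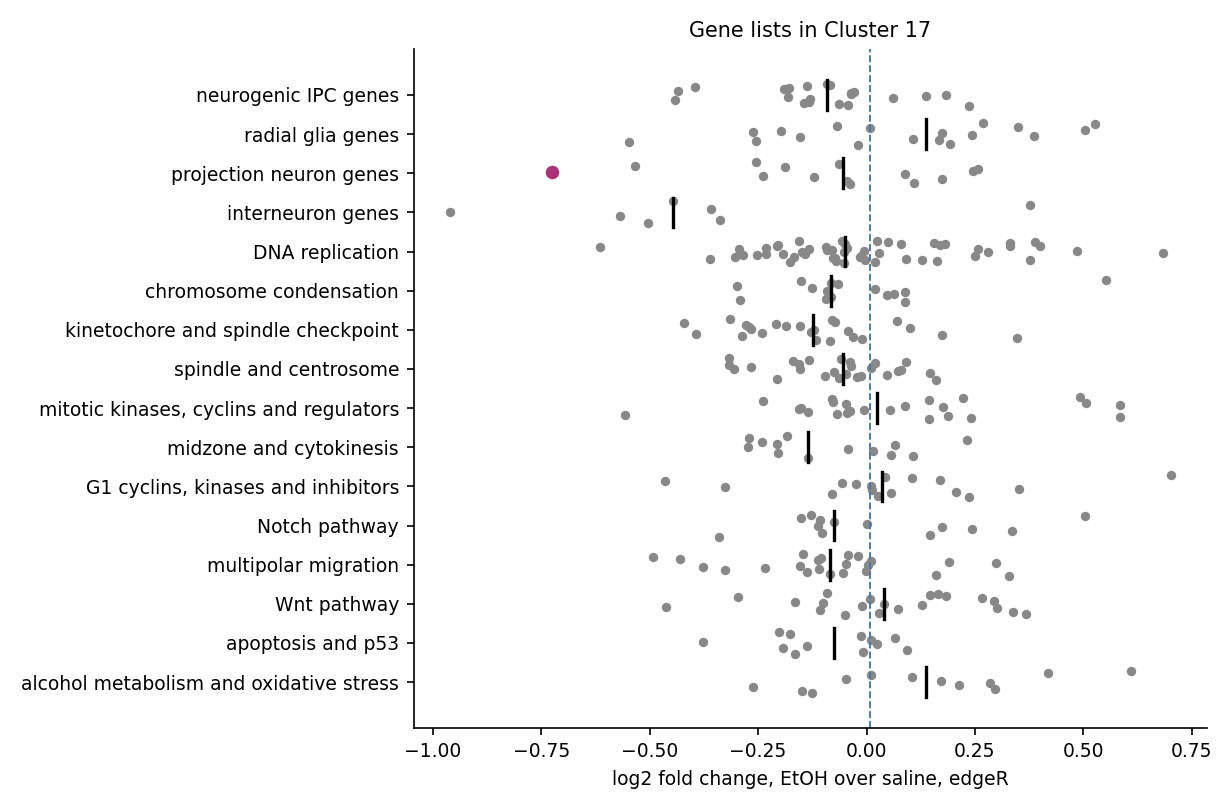
Log2 fold change, EtOH over saline, of each tested member of the gene lists in Cluster 17. Points are genes, black lines the median of a list, the dashed line the median of all genes tested (0.01), and the 1 colored point is Neurod2, the called member.

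The remaining lists held 0 called genes, against 0.164% of all genes tested. The median log2 fold change was 0.03 for 16 G1 cyclins, kinases and inhibitors, -0.08 for 13 Notch pathway genes, -0.08 for 23 genes of multipolar migration, 0.04 for 21 Wnt pathway genes, -0.08 for 12 apoptosis and p53 genes, 0.14 for 12 genes of alcohol metabolism and oxidative stress, and -0.45 for 7 interneuron genes. Rbpj, the DNA-binding partner of Notch, had a log2 fold change of -0.34 ± 0.10 (SE; edgeR, adjusted p = 0.122). Pard3, a polarity protein, had a log2 fold change of -0.38 ± 0.11 (SE; edgeR, adjusted p = 0.115), and Aldh1b1, a mitochondrial aldehyde dehydrogenase, of 0.61 ± 0.21 (SE; edgeR, adjusted p = 0.153). Dcc, the netrin receptor and the highest of the migration list in Cluster 17, stood at 10179 ± 2865 CPM and had a log2 fold change of -0.43 ± 0.19 (SE; edgeR, adjusted p = 0.3). Without S2-4, Eomes, Neurog2 and Chd7 of the neurogenic list were called lower, Pax6 of the radial glia list higher, Mcm7, H2afz and Aurka of the cell cycle lists higher, and Neurod2, Tmpo, Cenpf, Rbpj and Pard3 lower, against 5.12% of all genes higher and 1.63% lower. With the depth term, 16 of the 49 list genes with an unadjusted p under 0.05 had a log2 fold change over 1.5 times smaller, among them Mcm7 (0.06), Rbpj (-0.13), Mki67 (-0.15), Dcc (-0.21) and Cenpf (-0.25), while Eomes stood at -0.44, Neurog2 at -0.35 and Pax6 at 0.44.

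Whether the difference with EtOH was particular to mitotic IPCs was tested on the difference itself. Against the non-mitotic IPCs of Cluster 6, 1 of 10453 genes, 0.00957%, was called for a different EtOH effect. Nim1k, a kinase related to AMPK, went from 14.8 ± 5.06 CPM in saline to 27.5 ± 8.62 CPM in EtOH in Cluster 17, and from 13.1 ± 3.71 to 6.06 ± 2.33 CPM in Cluster 6 (difference of log2 fold changes 1.92 ± 0.35 (SE), edgeR adjusted p = 0.0494). The value rested on 208 UMIs in Cluster 17 and was not called by limma on the differences between clusters of each embryo. Zic1 and Fgf12 followed without passing (edgeR, adjusted p = 0.463 for each). Against the dividing RGCs of Cluster 2, 0 of 11024 genes were called for a different EtOH effect by edgeR and 0 by limma, with 517 and 480 genes at an unadjusted p under 0.05. Cdh7, a cadherin, had the smallest p (23.6 ± 4.14 to 31.6 ± 11.9 CPM in Cluster 17, 18.7 ± 3.71 to 8.94 ± 1.52 CPM in Cluster 2, edgeR adjusted p = 0.0763). Tested alone between EtOH and saline, Cluster 6 had 1 of 10785 genes called, and Cluster 2, with 4346 nuclei against 993, had 85 of 11837. Among the genes called in Cluster 17, the log2 fold change in Clusters 6 and 2 was 0.51 and 0.35 for Fgfr2, -0.56 and -1.70 for Reln, -0.36 and -0.20 for Neurod2 and -0.40 and -0.13 for Glis3. Gm26573 also passed in Cluster 2 (0.95, edgeR adjusted p = 0.0485), as did Rfx3 (-0.40, edgeR adjusted p = 0.0389), which did not pass in Cluster 17. The 14 called genes did not pass the test of the difference, with adjusted p of 0.812 or above against Cluster 6 and 0.362 or above against Cluster 2 (edgeR). Glis3 had that lowest value, with a difference of log2 fold changes of -1.05 ± 0.24 (SE). The tests of the 3 clusters share embryos, so these values are not independent of each other.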

How the data were processed

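Nuclei from the cortex of each embryo were sequenced with 10x Genomics 3′ v3.1 chemistry. The authors aligned the reads with Cell Ranger to mm10, filtered nuclei and genes (mitochondrial and sex-specific genes were removed), normalized with SCTransform, corrected for batch and dam with Harmony, clustered the nuclei and deposited 1 table of raw UMI counts per embryo and cluster. The methods name default settings for Cell Ranger. Correction for free RNA and removal of doublets are not given in the sources used here.

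From these deposited counts, the Cluster 17 nuclei were summed per embryo and tested with edgeR 4.0.16 (glmQLFit with robust estimates, TMM, filterByExpr) in R 4.3.3, with Benjamini-Hochberg adjustment over all genes tested and no covariate. Tests of a differing EtOH effect between clusters used a term per embryo. Percentages and depths were compared by two-sided exact permutation tests over 462 splits of the 11 embryos, whose smallest possible p is 0.00216. Phases were called from module scores against 100 control genes per gene in 24 bins of expression. The scripts were tested on simulated data. Alternatives used DESeq2 1.42.0, limma 3.58.1, other filters, batch, dam, depth and each embryo left out.

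Named genes were the 3 markers, the called genes (up to 10 per direction, or the 5 smallest p where fewer than 5 were called), the 10 largest ratios to the next cluster, and the 5 largest and smallest ratios to Clusters 6 and 2. Also named were any called list member, the smallest p of the tests between clusters, and markers of other cell types. The rule also took the 4 highest members of each list, but for many lists only some or none of these are named. Further list members were named after their values were seen. Members and lists were chosen with earlier results of these data known. In total, 23090 genes matched the annotation once by symbol.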

Additional observations from a re-analysis of the deposited data

Results flagged for a closer look

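In 28 measures of Cluster 17, each in 5 saline and 6 EtOH embryos, the highest or lowest embryo of a group was compared with the others by Dixon's criterion, which chance exceeds in about 1 in 20 groups, and 7 of the 56 groups exceeded it. Saline embryo S2-4 stood above the other saline embryos in Top2a (974 CPM), in Gm26873 (21.1 CPM) and in Ggact (28.5 CPM). EtOH embryo E1-1 stood below the other EtOH embryos in median depth (5520 UMIs per nucleus) and above them in Gm28375 (117 CPM) and Sfpq (711 CPM). EtOH embryo E2-2 stood above the others in Mki67 (392 CPM). Nim1k had a different EtOH effect in Cluster 17 and in Cluster 6 by a test of the difference itself, at 1.92 on the log2 scale.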

How the results depend on the processing

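The 16 genes named from the EtOH comparison kept their direction under every alternative that gave a value. Of the 310 list genes tested, 66 changed sign with the depth term, among them Top2a (0.09 to -0.06) and Kif23 (0.06 to -0.04), and 0 of the 66 had an unadjusted p under 0.05 without it. Against 14 genes, DESeq2 called 100, no filter on low counts 434 (219 higher and 215 lower, against 11 and 3), limma voom, with dams as a random effect, 81, a batch term 4, nuclei thinned to 2000 UMIs 4, leaving out nuclei above 2 times the median UMIs 2 and leaving out nuclei with an interneuron UMI 1. Sums per dam, a depth term and an interneuron term, the last 2 chosen after seeing the data, gave 0 calls, with 1276, 365 and 797 genes at an unadjusted p under 0.05. The 14 genes were among those called by DESeq2, without a filter and by voom, while with thinned nuclei only 4 of them passed the filter and 0 of those were called, with log2 fold changes of 0.60 for 4930578G10Rik, 0.39 for Fgfr2, 1.02 for Gm28375 and -0.74 for Neurod2. Leaving out each embryo gave 0 to 568 calls. The number of genes called for a different EtOH effect was 0 by limma and 6 with thinned nuclei against Cluster 6, 10 with thinned nuclei against Cluster 2, and 0 to 1 with each embryo left out for either cluster. The difference in the share of nuclei turned from -0.00685 to 0.0928 percentage points over dam means and to 0.832 when taken of RGC and IPC nuclei, and lay between -0.147 and 0.121 with each embryo left out. The depth difference was -2654 UMIs over dam means, where p cannot go below 0.333. With labels exchanged within batches, detection of Eomes and of Eomes with Top2a still passed (exact permutation tests, adjusted p = 0.0429 for each). The difference in Eomes detection was -12.1 by medians, -12.7 over dam means and -4.96 thinned, and that of Eomes with Top2a -14.3, -12.4 and -4.67 percentage points, all short of the threshold. With each embryo left out they lay between -14.96 and -9.25, and between -14.5 and -8.97 for both genes, and that of Top2a between -3.21 and -1.72, past the threshold without E2-2 (exact permutation test, adjusted p = 0.00794). The causes were not tested. No paired analysis was possible because the numbers count littermates within a dam and pair no saline embryo with an EtOH embryo. Each batch held both treatments, which the batch term and the exchange of labels within batches used. With 423368 to 1613282 UMIs per embryo, a gene of 10 CPM was counted from 4.23 to 16.1 UMIs an embryo, and no absence of a change can be read from genes at or below that level.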
